A study of Mus musculus with 4 samples.

Results

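The miR-379/410 cluster is a run of miRNA genes that lie close together on 1 strand of mouse chromosome 12. Its members were taken by name: every listed mature miRNA of 35 hairpins, from miR-379 to miR-410, with either arm. This gave 70 of the 1907 mature miRNAs in the table, 35 from the 5p arm and 35 from the 3p arm of a hairpin. They were measured by small RNA-seq in E14Tg2A embryonic stem (ES) cells, a mouse line of the 129/Ola strain, and in epiblast-like aggregates (ELA) made from the same line.

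ES serum cells were grown with 10% fetal calf serum and 1000 U/mL leukemia inhibitory factor (LIF). ES 2iL cells were switched for several passages to a serum-free N2/B27 medium with 1000 U/mL LIF, 1 μM PD0325901 (a MEK inhibitor) and 3 μM CHIR99021 (a GSK3 inhibitor). ELA serum and ELA 2iL were floating aggregates of cells from either culture, kept for 2 days in a chemically defined minimal medium without serum or LIF. The words serum and 2iL in the ELA names thus refer to the ES cells of origin. Each of the 4 groups was 1 library of RNA pooled from 3 sets of experiments, so no value below has an error between experiments. All come from 1 cell line. Where 4 values stand in a row, those of ES cells in serum and in 2iL come first, followed by those of the aggregates from serum and from 2iL, and levels are in RPM, the reads of a miRNA scaled to a library total of 1000000.

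A miRNA is cut from the stem of a hairpin, and either strand of the stem (the 5p or the 3p arm) can be loaded into the RNA-induced silencing complex, where bases 2 to 8, the seed, pair with target mRNAs. The cluster belongs to the Dlk1–Dio3 imprinted domain, whose noncoding RNAs and miRNAs are expressed from the maternal chromosome while Dlk1 and Rtl1 are expressed from the paternal one. Its hairpins are thought to be processed from a long noncoding precursor, and the cluster is best known from brain and placenta and from the comparison of pluripotent stem cell lines in which the domain is active or silenced.

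In the mm9 genome, 34 of the 35 hairpins of RefSeq matched exactly once, all on the plus strand of chromosome 12, within chr12:110947270-110982005. Mir379 is the first of them and Mir410 the last, over 34736 bp. The hairpin of Mir544 was not placed. From Mir379 to Mir485 they lie outside annotated genes (GENCODE vM1), and from Mir154 on in the noncoding gene Mirg (chr12:110973191-110987665), with Mir154, Mir496a, Mir541 and Mir409 in its introns and Mir377, Mir412, Mir369 and Mir410 in its exons. The other noncoding genes of the domain, Meg3 (chr12:110779211-110809936) and Rian (chr12:110842155-110899919), lie upstream, and Rtl1 lies between them on the other strand.

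The 10 most abundant members carry most reads of the cluster, so their mature sequences (RefSeq on GRCm38.p6) are shown, with the seed in capitals.
miR-541-5p: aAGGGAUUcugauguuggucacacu
miR-411-5p: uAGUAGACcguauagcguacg
miR-410-3p: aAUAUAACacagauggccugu
miR-409-3p: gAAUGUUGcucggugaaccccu
miR-758-3p: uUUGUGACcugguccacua
miR-409-5p: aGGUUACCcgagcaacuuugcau
miR-381-3p: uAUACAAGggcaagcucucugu
miR-300-3p: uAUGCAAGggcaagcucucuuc
miR-134-5p: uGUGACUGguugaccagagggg
miR-380-3p: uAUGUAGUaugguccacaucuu
Of the 66 members with a RefSeq mature sequence, 5 pairs share a seed with each other. They are listed pair by pair, with the seed in capitals.
miR-379-5p: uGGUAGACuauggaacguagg
miR-1193-5p: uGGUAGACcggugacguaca
miR-379-3p: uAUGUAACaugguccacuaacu
miR-411-3p: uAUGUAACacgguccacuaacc
miR-1197-5p: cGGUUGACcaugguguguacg
miR-758-5p: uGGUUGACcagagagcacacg
miR-494-5p: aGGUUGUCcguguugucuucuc
miR-410-5p: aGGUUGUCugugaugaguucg
miR-376b-5p: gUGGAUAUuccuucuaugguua
miR-376c-5p: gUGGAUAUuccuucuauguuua
Among the 10 most abundant members, all seeds were different. Of these, miR-300-3p and miR-381-3p have the same length of 22 bases and differ at 3 positions, 1 of which is in the seed. The pairs with a common seed joined mostly low members. One pair was miR-379-3p with miR-411-3p, whose summed level was 731, 753, 952 and 1127 RPM. The seed of miR-379-5p recurs in miR-1193-5p, and this pair reached 977, 202, 1358 and 497 RPM in sum. The first pair was thus lowest in the serum ES cells and the second in the 2iL ES cells. A feature that seeds of several 5p members have in common is GGU at bases 2 to 4. It was present in 14 of 66 members (21.2%), all of the 5p arm, against 40 of 1623 listed miRNAs with a sequence (2.46%). On the other arm, the letters GGUCCAC were found anywhere in 5 members, miR-379-3p, miR-411-3p, miR-380-3p, miR-758-3p and miR-412-3p, and in 0 other of the 1623 sequences. Both motifs were searched in the mature strand only, and they were picked by eye from the sequences.

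The libraries held 8056984, 2767016, 4309257 and 587363 miRNA reads, recovered from the RPM values as described under the processing of the data. The shallowest, ELA 2iL, had the coarsest scale: 3 reads, taken as the smallest detected level, equal 5.11 RPM there and 0.372 RPM in ES serum. One field of the sample labels exchanges ES 2iL with ELA serum. The groups used here follow the titles, source names and column names. Under the exchanged reading the contrasts of stage and of medium would trade places. The miR-302 cluster, a marker of primed cells, stood at 5952, 78.4, 37319 and 7084 RPM in sum, so it was higher in ELA than in ES in both media under the reading used here. The miR-290 cluster, a marker of ES cells, stood at 86119, 183326, 55535 and 140756 RPM and was lower in ELA in both media. The ranges over libraries of the summed markers of other cell types were 477 to 872 RPM for 6 neural miRNAs, 1475 to 4847 RPM for 5 of fibroblasts and mesenchyme, 616 to 2193 RPM for 5 of blood, 0 to 73.2 RPM for 3 of muscle and 0 for 2 of endothelium. In the library with the most of them, 5 of the neural, 5 of the fibroblast, 4 of the blood and 2 of the muscle markers had at least 3 reads. Of the defining markers, miR-142a-3p, miR-219a-5p, miR-126a-3p and miR-126a-5p were listed at 0 in all 4 libraries. Whether a listed 0 means absence cannot be told, since how reads on overlapping features were counted is not given in the sources used here. The blood sum came mostly from the other arm of miR-142a, miR-142a-5p, at 591, 1605, 549 and 1999 RPM, and from miR-150-5p, at 65.2 to 581 RPM. Also present were miR-124-3p at 44.3 to 142.03 RPM and miR-143-3p at 1451 to 4729 RPM. The summed neural, fibroblast and blood markers were higher in 2iL than in serum at both stages, although miR-9-5p was lower in 2iL at both, with 356, 156, 246 and 218 RPM. By stage, ELA over ES was 0.467 in serum and 0.410 in 2iL for the fibroblast sum, 0.725 and 0.629 for the neural sum and 0.644 and 0.961 for the blood sum. The muscle sum was 4.20-fold higher in ELA in serum and went from 0 to 73.2 RPM in 2iL. The part of these markers in the results below was not tested.

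Members of the cluster took 10.3% of all miRNA reads in serum ES cells and 5.19% in 2iL ES cells, against 14.03% and 9.57% in the aggregates made from them. The Wilson 95% intervals, which cover counting error only, were 10.3% to 10.4%, 5.16% to 5.22%, 13.99% to 14.06% and 9.49% to 9.64%. The cluster was therefore lowest in the ground-state culture and highest in the aggregates from serum cells. In such bulk samples, fewer cells that express a miRNA and less of it per cell cannot be told apart. ELA exceeded ES 1.36-fold in serum (exact 95% counting interval 1.35 to 1.36) and 1.84-fold in 2iL (1.83 to 1.86). Serum exceeded 2iL 1.99-fold in ES cells (1.98 to 2.00) and 1.47-fold in ELA (1.45 to 1.48). Leaving out the most abundant member, miR-541-5p, brought the 2iL fold between ELA and ES down to 1.40 (1.38 to 1.41) and left the serum fold at 1.34 (1.34 to 1.35).

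**Figure D1:**
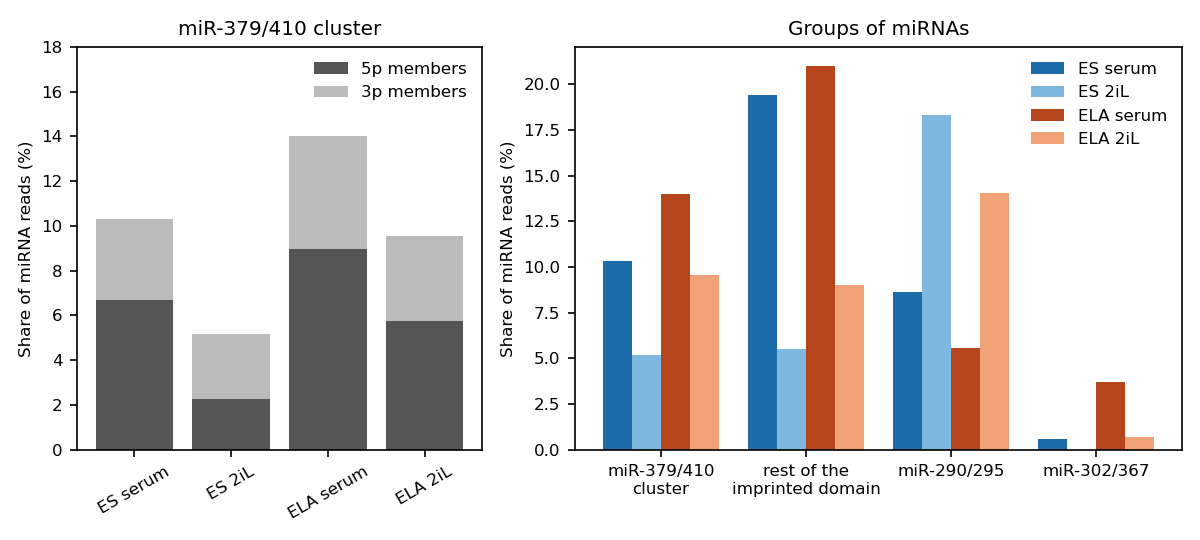
Share of all miRNA reads (%) in each of the 4 libraries, on the left for the 35 5p and the 35 3p members of the cluster stacked, on the right for 4 groups of miRNAs. The 5p part of the cluster runs from 2.27% in ES 2iL to 8.99% in ELA serum, while the 3p part stays between 2.92% and 5.03%.

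Between media, the difference was larger for the 5p members than for the 3p members. The 5p members summed to 66943, 22710, 89920 and 57419 RPM. The 3p members summed to 36398, 29179, 50338 and 38273 RPM. Serum exceeded 2iL in ES cells 2.95-fold (2.92 to 2.97) for the 5p sum and 1.25-fold (1.24 to 1.26) for the 3p sum, and in ELA 1.57-fold (1.55 to 1.58) and 1.32-fold (1.30 to 1.33). Between stages the order depended on the medium. ELA exceeded ES in serum 1.34-fold for the 5p sum and 1.38-fold for the 3p sum, and in 2iL 2.53-fold and 1.31-fold. As a share within the cluster, which does not depend on how the libraries are scaled, 5p members held 64.8%, 43.8%, 64.1% and 60.0% of the reads. The share was lowest in ES 2iL. Without miR-541-5p it was 41.0%, 25.8%, 39.2% and 30.3%, below 50% in all 4 libraries, and the 5p fold of serum over 2iL in ES cells was 2.50 (2.47 to 2.53). Without miR-541-5p and miR-409-5p, left out after their values were seen, that fold was 1.84 (1.82 to 1.86), and the cluster summed to 54623, 39081, 72821 and 53606 RPM.

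Reads were present for 66 members, and 65 had at least 3 reads in at least 1 library. The 4 members listed at 0 throughout were both arms of miR-299a and both arms of miR-654. The hairpin of miR-299a overlaps that of miR-299b on the opposite strand, which is also listed at 0, and how reads on overlapping features were counted is not given in the sources used here. miR-668-5p had at most 2 reads. The limit used here for an expressed miRNA, a mean of 5 for log2(RPM + 1) over the 4 libraries, was reached by 42 members and by 260 other miRNAs. The members nearest to this limit were miR-300-5p inside, with a mean of 5.04, and miR-412-3p outside, with 4.96. The 23 detected members under the limit, 17 of them from the 5p arm, together held 0.243% to 0.395% of the reads of the cluster, with a median level of 10.4, 4.70, 11.6 and 11.9 RPM.

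Levels differed widely among members of this 1 locus. miR-541-5p led in all 4 libraries, with 41627, 12570, 57451 and 40786 RPM, and made up 40.3%, 24.2%, 41.0% and 42.6% of the reads of the cluster. It ranked 6, 17, 5 and 6 among all miRNAs of each library. Its share was lowest in ES 2iL. miR-411-5p followed with 14679, 8011, 17085 and 11015 RPM, and miR-410-3p with 12125, 8570, 17364 and 7246 RPM. Both were higher in serum than in 2iL at each stage. miR-409-3p was at 6721, 6126, 8523 and 8920 RPM, a narrow range in which neither medium was consistently higher. miR-758-3p was at 3284, 3323, 4915 and 7844 RPM, with both ELA libraries above both ES libraries.

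**Figure D2:**
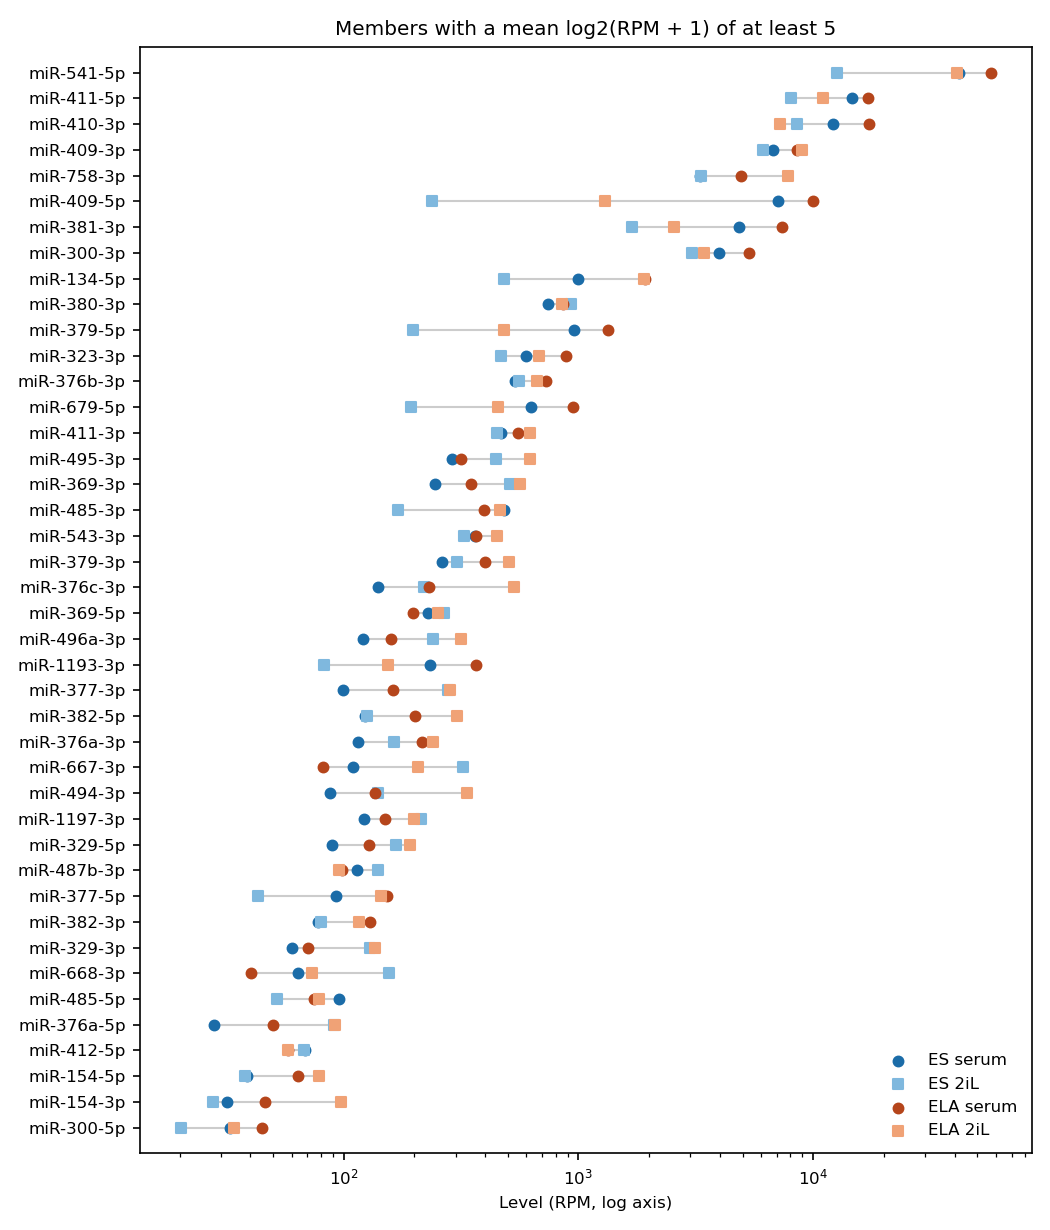
Level in RPM (log axis) of the 42 expressed members in each of the 4 libraries, sorted by their mean, with circles for serum and squares for 2iL. miR-541-5p is at the top with 12570 to 57451 RPM, and miR-409-5p has the longest line, from 237 RPM in ES 2iL to 9986 RPM in ELA serum.

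The next members in abundance differed in which libraries were high. miR-409-5p was at 7091, 237, 9986 and 1301 RPM and ranked 21, 156, 15 and 66 among all miRNAs. miR-381-3p, one of the members that neuronal activity induces through Mef2, was at 4812, 1684, 7354 and 2554 RPM. In both, each serum library was higher than each 2iL library. miR-300-3p was at 3984, 3052, 5328 and 3417 RPM. miR-380-3p was at 742, 934, 862 and 850 RPM, the narrowest range of these 10 by ratio. miR-134-5p, known for restraining dendritic spine growth through Limk1, was at 995, 484, 1914 and 1895 RPM. Its 2 ELA libraries were alike and above both ES libraries. The 5 most abundant members of each library held 79.6%, 74.4%, 78.7% and 79.2% of the reads of the cluster, and 8, 7, 10 and 9 members reached 1000 RPM.

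Other members that are often studied were less abundant. miR-323-3p was at 597, 470, 887 and 681 RPM, higher in ELA than in ES in either medium. miR-369-3p was at 245, 512, 350 and 565 RPM and was higher in 2iL at either stage. miR-485-5p was at 95.8, 52.0, 74.7 and 78.3 RPM, lowest in ES 2iL.

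Stage was read as ELA minus ES on log2(RPM + 1), as the mean of both media, and medium as 2iL minus serum, as the mean of both stages. Because RPM values are shares of a library, the median difference of all expressed miRNAs was not 0: it was -0.08 for stage and 0.42 for medium. The differences of members are therefore given relative to that median, unless RPM is named. A rescaling of whole libraries cancels in such a relative difference. By medium, 5 of the 27 members named by rule have opposite signs on the 2 scales, above 0 in RPM and below 0 relative to the median: miR-758-3p, miR-380-3p, miR-487b-3p, miR-369-5p and miR-379-3p. By stage, 0 do. A pseudocount of 1 RPM understates the change of low members.

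At the transition from ES cells to ELA, most members of the cluster were higher in ELA. Of the 42 expressed members, 37 were above the median of all expressed miRNAs, and 34 (81.0%) were so in both media, beside 36.4% of all expressed miRNAs. The median of the members was 0.51 (SD across members 0.50, range -0.78 to 1.56), where that of all expressed miRNAs is 0 by construction (SD 1.24). Past a difference of 1 stood 8 members on the higher side, where 14.2% of all expressed miRNAs were, and 0 on the lower side, where again 14.2% were. On the RPM scale these counts were 5, beside 11.6% of all, and 0, beside 16.2%. The 5 were miR-409-5p, miR-134-5p, miR-377-5p, miR-154-3p and miR-541-5p, and the relative scale added miR-376c-3p, miR-382-5p and miR-494-3p, which are named after their values were seen. The higher share of 8 in 42 members (19.0%) was near the background.

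The 5 members highest in ELA by this contrast had larger differences in 2iL than in serum. The SEs here and below are from limma, with 1 residual degree of freedom and a spread shared across miRNAs. That residual is how far the stage difference departs from being equal in both media, not a spread between repeat libraries. miR-409-5p had a relative stage difference of 1.56 (SE 0.63), made up of 0.49 in serum and 2.62 in 2iL. miR-134-5p had 1.54 (SE 0.50), with a fold of 1.92 (1.87 to 1.98) in serum and 3.91 (3.61 to 4.24) in 2iL on the RPM scale. Both were thus higher in ELA in either medium, and the 2iL value was the larger. miR-377-5p was at 92.5, 43.4, 153 and 144.7 RPM, a stage difference of 1.30 (SE 0.49). miR-154-3p was at 31.9, 27.8, 46.2 and 97.0 RPM, a difference of 1.23 (SE 0.52). miR-541-5p had 1.17 (SE 0.52), with 0.46 in serum and 1.86 in 2iL. In these 5, ES 2iL was the lowest of the 4 libraries.

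At the other end of the stage contrast, 5 members were below the median. miR-668-3p was at 63.9, 155, 40.1 and 73.2 RPM, with a relative stage difference of -0.78 (SE 0.45). miR-667-3p was at 110, 322, 81.7 and 208 RPM, a difference of -0.44 (SE 0.44). In both, ELA was below ES within each medium. miR-487b-3p was at 115, 141, 98.4 and 95.3 RPM (-0.30, SE 0.44). miR-412-5p was at 68.8, 67.6, 58.0 and 57.9 RPM (-0.15, SE 0.44), and miR-369-5p at 228, 268, 198 and 252 RPM (-0.06, SE 0.44). The last 3 differed by less than their standard errors.

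The stage difference was also read in each medium on its own. In serum, 35 of 42 members were higher in ELA, with a median of 0.48, and 0 were past 1 on either side, beside 8.61% of all expressed miRNAs higher and 15.6% lower. In 2iL, 37 of 42 were higher, with a median of 0.70, and 14 were past 1 on the higher side and 0 on the lower, beside 21.9% and 18.9% of all. On the RPM scale the 2iL counts were 13 and 1, beside 18.9% and 23.5%. Members from the 5p arm had a median of 1.19 in 2iL (15 members) and those from the 3p arm 0.64 (27 members), whereas in serum the medians were 0.49 and 0.44. The difference between the media was not tested, since each rests on 1 library per stage.

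By medium, the median of the members was below that of all expressed miRNAs, and the largest differences were on the lower side in 2iL. The median relative difference was -0.32 (SD 1.01, range -4.34 to 1.02), with 29 members below 0 and 13 above, where all expressed miRNAs divide evenly by construction. On the RPM scale the direction turned, with 19 members below 0 and 23 above, beside 65.2% of all expressed miRNAs above. Past 1 stood 9 members on the lower side, where 20.2% of all expressed miRNAs were, and 1 on the higher side, where 13.6% were. On the RPM scale the counts past 1 were 6 lower, beside 13.2% of all, and 5 higher, beside 23.8%, with a median of 0.10. The share of 9 in 42 (21.4%) was near the background. In ES cells alone, 12 members were past 1 on the lower side and 3 on the higher, beside 25.5% and 18.9% of all, and in ELA alone 8 and 0, beside 15.6% and 12.9%. On the RPM scale these were 9 and 6 in ES cells, beside 17.5% and 30.8% of all, and 6 and 4 in ELA, beside 8.61% and 22.2%. At both stages, 6 members were past 1 on the lower side and 0 on the higher side, beside 10.9% and 7.95% of all expressed miRNAs.

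miR-409-5p was the member with the largest medium difference, -4.34 (SE 0.63), made up of -5.33 in ES cells and -3.31 in ELA. In ES cells its level in serum exceeded that in 2iL 29.9-fold (27.7 to 32.4), and in ELA 7.68-fold (7.15 to 8.26). The members next to it on the lower side had smaller differences. miR-379-5p was at 962, 198, 1334 and 484 RPM, a difference of -2.29 (SE 0.48). For miR-381-3p it was -1.94 (SE 0.44), with folds of serum over 2iL of 2.86 (2.77 to 2.95) in ES cells and 2.88 (2.73 to 3.03) in ELA. miR-679-5p was at 626, 193, 946 and 456 RPM (-1.79, SE 0.46). miR-1193-3p was at 232, 82.8, 365 and 155 RPM (-1.77, SE 0.44). In each of these 5 both serum libraries were above both 2iL libraries.

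On the higher side, miR-667-3p had a difference of 1.02 (SE 0.44). Its level in 2iL exceeded that in serum 2.92-fold (2.66 to 3.21) in ES cells and 2.54-fold (2.05 to 3.13) in ELA. The others stayed under 1. miR-376a-5p was at 28.2, 91.1, 50.1 and 91.9 RPM (0.84, SE 0.47). miR-377-3p was at 99.4, 277, 162 and 284 RPM (0.72, SE 0.46). In both, the 2 libraries of 2iL cells were nearly equal and above those of serum cells. For miR-668-3p the difference was 0.64 (SE 0.45), and miR-329-3p, at 60.1, 130, 70.3 and 136.2 RPM, had 0.60 (SE 0.44).

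**Figure D3:**
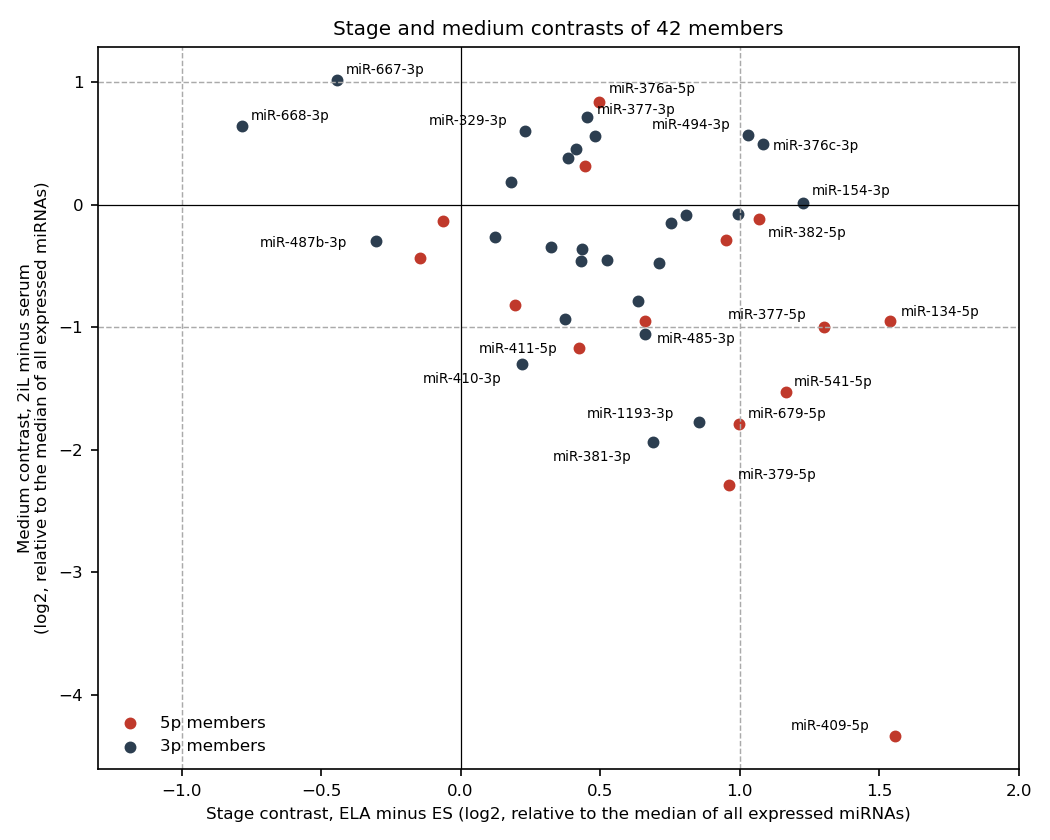
Relative stage contrast (x axis) against relative medium contrast (y axis) of the 42 expressed members, both log2 differences on which 0 is the median of all expressed miRNAs, in red for 5p and in dark blue for 3p members, with dashed lines at a difference of 1. Most points lie right of 0, and miR-409-5p lies alone at the lower right.

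The test covered 599 miRNAs that had 10 or more reads in 2 or more libraries. In it, limma with stage and medium as terms called 0 for stage and 0 for medium at an adjusted p of 0.05. Of the 599, 60 were members. At an unadjusted p under 0.05 it had 125 of 599 miRNAs for stage, 3 of them members, and 176 for medium, 12 of them members. The lowest adjusted p of a member was 0.091, for miR-409-5p by medium. On the recovered reads, edgeR's quasi-likelihood test called 6 members by medium, all lower in 2iL, where it called 7.01% of all miRNAs lower and 3.67% higher (10.7% in all). DESeq2 called 6 as well, all lower, where it called 7.51% lower and 4.84% higher (12.4% in all). They were the same by both tools: miR-379-5p, miR-679-5p, miR-1193-3p, miR-381-3p, miR-541-3p and miR-409-5p. The adjusted p of miR-409-5p was 0.000666 by edgeR and 1.75e-10 by DESeq2. For stage, edgeR called 1 member (miR-495-5p, adjusted p = 0.033), higher in ELA, where it called 4.34% of all miRNAs higher and 2.17% lower (6.51% in all). DESeq2 called 2 (miR-495-5p, adjusted p = 0.026, and miR-134-5p, adjusted p = 0.0296), both higher, where it called 5.68% higher and 2.67% lower (8.35% in all). miR-541-3p and miR-495-5p are named after their values were seen. miR-495-5p was at 2.36, 2.17, 15.1 and 13.6 RPM, and 2.17 RPM in ES 2iL is 6 reads.

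The 2 arms of a hairpin come from the same precursor, and their ratio within a library does not depend on how the library is scaled. It could be read for 31 hairpins with at least 20 reads in each library. On average over libraries, 22 of them were led by the 3p arm and 9 by the 5p arm, and 28 kept the same leading arm in all 4 libraries. In 13 hairpins 1 arm held over 95% of the reads in all 4 libraries, among them miR-541 (5p) and miR-381 and miR-410 (3p). In the median hairpin, the 5p share ranged over 4.07 percentage points between libraries, and in 168 other hairpins of the table over 4.05. A range of at least 20 points was found in 4 of the 31 hairpins (12.9%) and in 24 of the 168 (14.3%).

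miR-409 had the widest range of the cluster, 50.2 percentage points, against a maximum of 55.8 among the 168 others. Its 5p arm made up 51.3% of the reads of the hairpin in serum ES cells and 3.73% in 2iL ES cells, against 54.0% and 12.7% in the aggregates made from them. Its arms were thus about even in serum, while the 3p arm took most reads in 2iL. miR-379 came next, with 5p shares of 78.6%, 39.4%, 76.9% and 49.0%. Its leading arm was 5p in serum and 3p in ES 2iL, while in ELA 2iL the Wilson interval of the 5p share (44.9% to 53.03%) included 50%. In 2iL, miR-379-3p stood at 304 and 504 RPM in ES and ELA against 262 and 401 RPM in serum. miR-377 had 5p shares of 48.2%, 13.5%, 48.6% and 33.7%. In all 3 hairpins the Wilson intervals of serum and 2iL were apart at both stages, which was so for 9 of the 31 (29.0%) and for 35 of the 168 others (20.8%). Setting the arms against each other by log2(5p/3p), the medium contrast was -3.89 for miR-409, -2.15 for miR-379 and -1.73 for miR-377.

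**Figure D4:**
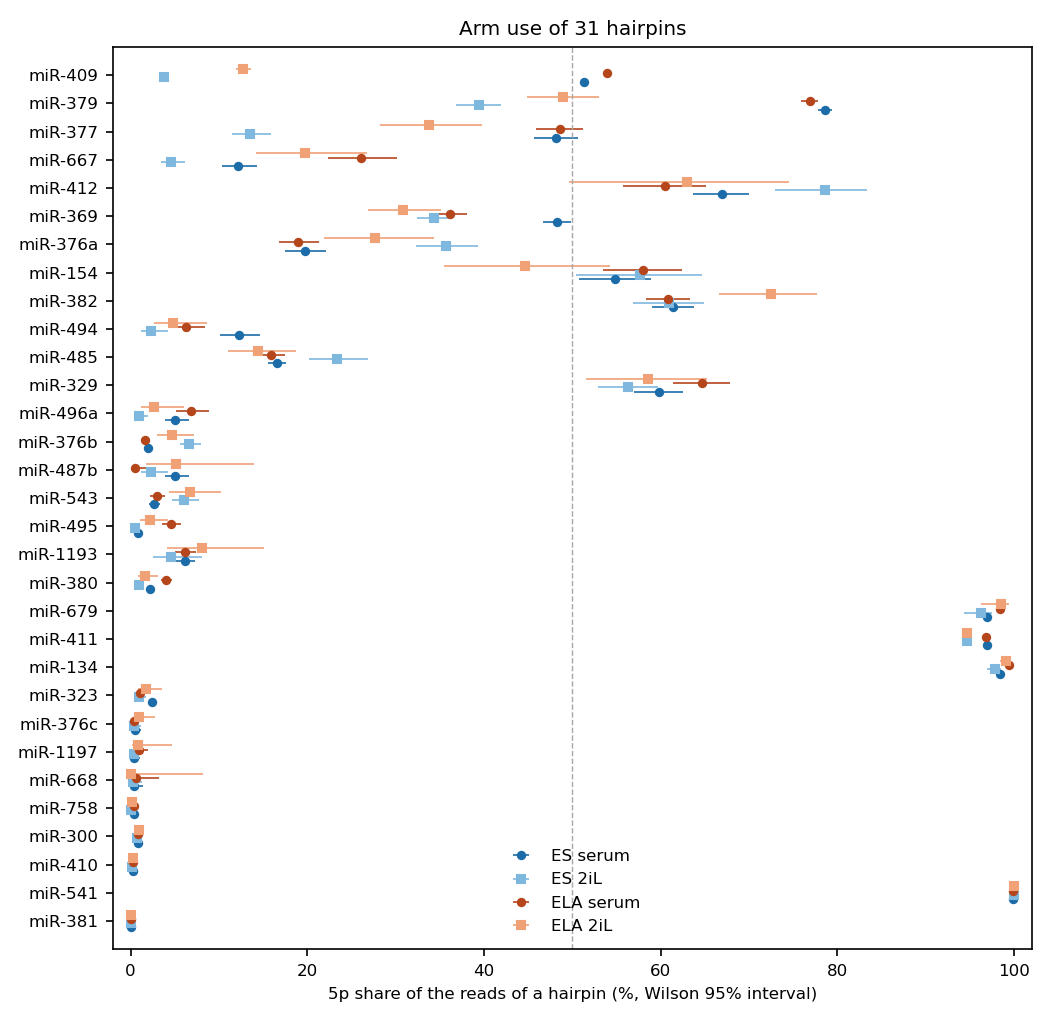
5p share of the reads of each of 31 hairpins (%, with Wilson 95% intervals) in the 4 libraries, sorted by the range between libraries, with circles for serum and squares for 2iL. In miR-409, miR-379 and miR-377 the squares lie left of the circles, while in the lower rows the 4 points nearly coincide.

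The direction of the arm difference was not the same in all hairpins. The 5p share was lower in 2iL at both stages in 15 hairpins (48.4%) and higher in 6 (19.4%), beside 23.8% and 32.7% of the 168 others. By log2(5p/3p), with 0.5 reads added to each arm, 8 of 31 hairpins (25.8%) were lower in 2iL by at least 1 and 4 (12.9%) were higher, beside 16.1% and 22.02% of the 168 other hairpins. By stage, 8 of 31 hairpins (25.8%) were higher in ELA by at least 1, beside 14.3% of the others, and 0 were lower, beside 9.52%. Minor arms with few reads enter these counts: miR-668-5p, in a hairpin counted as higher in ELA, had 2, 1, 1 and 0 reads. With at least 10 reads of each arm in each library, a limit chosen after the values were seen, 17 hairpins and 82 others were left. By medium, 4 of the 17 (23.5%) were then lower in 2iL, miR-379, miR-667, miR-377 and miR-409, beside 14.6% of the others. Higher in 2iL were 2 (11.8%), miR-543 and miR-376b, beside 17.1%. By stage, 3 (17.6%) were higher in ELA, miR-667, miR-134 and miR-409, beside 9.76%, and 0 were lower, beside 1.22%.

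Position along the cluster showed no clear relation to level or contrast. Over the 31 hairpins that reached the limit of 5 with both arms summed, Spearman's rho with the order along the locus was -0.04 for the mean level, -0.04 for stage and -0.01 for medium, given as a description since these hairpins share a locus and libraries. The 23 hairpins before Mirg and the 8 within it had median medium differences of -0.29 and -0.36. Neighbouring hairpins were not always alike. miR-679 and miR-1193, 20 bp apart, had hairpin differences of -1.79 and -1.77 by medium, whereas miR-494, 174 bp upstream of miR-679, had 0.48. miR-668 and miR-485, 104 bp apart, had 0.63 and -1.01. Of 30 pairs of neighbours, 9 differed by at least 1, and of the 6 pairs less than 200 bp apart, 2 did. Hairpins that are not neighbours were not compared, so these counts do not show whether neighbours are more alike.

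**Figure D5:**
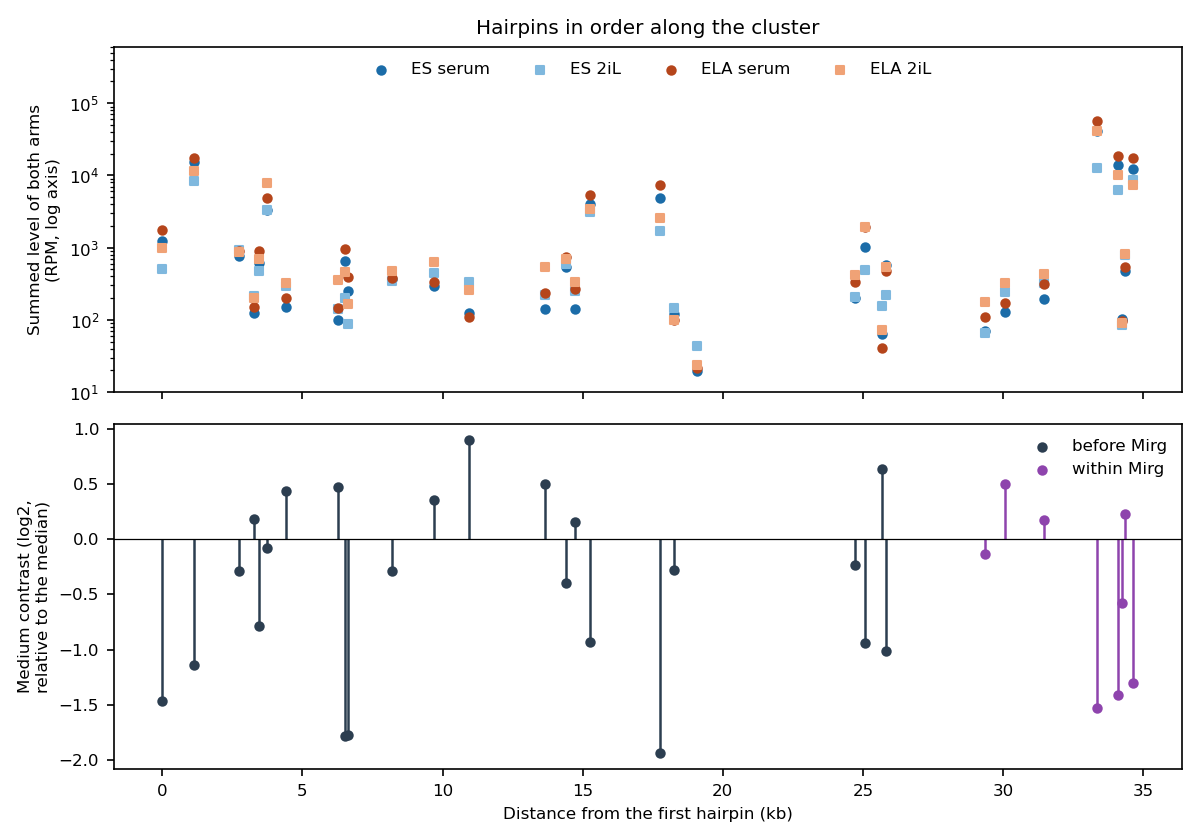
Hairpins by their distance from the first hairpin of the cluster (kb): above, the summed level of both arms in each library (RPM, log axis), and below, the relative medium contrast (log2) of the 31 expressed hairpins, in purple within Mirg. High and low hairpins, and positive and negative contrasts, alternate along the whole length.

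Features of the mature sequence did not order the members clearly. Across 39 expressed members with a sequence, Spearman's rho of the medium difference was -0.25 with GC content (median 45.5%, range 23.8% to 66.7%) and 0.12 with length, and -0.50 with the mean level. These members share the libraries, and the mean level enters both sides of the last relation. For 198 expressed miRNAs outside the domain the 3 values were -0.04, -0.02 and 0.06, and for 19 of the rest of the domain -0.51, 0.14 and -0.18. Of the 12 detected members with GGU at bases 2 to 4, 11 had a negative medium difference, with a median of -1.12. All are 5p members. Of the 15 expressed 5p members, with or without the motif, only 2 were above 0 by medium, with a median of -0.95. Of the 23 detected members under the limit, 6 were above 0, with a median of -0.53. Only 3 of the 12 with the motif were expressed at the limit, miR-379-5p, miR-409-5p and miR-412-5p, the last with -0.43. Since the motif was noticed in members already known to be low in 2iL, these counts are a description only.

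The other miRNAs of the imprinted domain were 46 listed names, of which 33 were detected and 19 expressed. They summed to 193985, 55015, 209985 and 90140 RPM, and miR-127-3p, which lies antisense to Rtl1, made up most of it with 174652, 40028, 185924 and 71252 RPM. It was named because it dominates the sum. Without it the rest summed to 19333, 14987, 24060 and 18888 RPM. For medium, 8 of the 19 were past 1 on the lower side and 0 on the higher, with a median of -0.88. Past the same limits were 9 and 1 of the 42 members, with a median of -0.32, and 20.2% and 13.6% of all expressed miRNAs. For stage, 2 of the 19 were past 1 on the higher side and 0 on the lower, with a median of 0.40. Here the members had 8 and 0, with a median of 0.51, and all expressed miRNAs had 14.2% on either side. The whole domain thus held 29.7%, 10.7%, 35.02% and 18.6% of all miRNA reads.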

How the data were processed

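Small RNA-seq libraries were made from total RNA of 4 groups, 1 library each, with RNA of 3 sets of experiments pooled beforehand. Reads were demultiplexed with CASAVA 1.8, trimmed with Trimmomatic, placed on mm9 with Bowtie, summarized with featureCounts over miRBase release 20 and deposited by the authors as RPM (reads scaled to a library total of 1000000 over the listed miRNAs). Other versions and the treatment of reads with several hits are not given in the sources used here. No column of per-sample values was left out.

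All values were whole multiples of 1 read (100% within 0.01 reads), which gave back the read numbers. Levels were taken as log2(RPM + 1). limma 3.58.1 (lmFit, eBayes, stage and medium as terms, Benjamini-Hochberg, two-sided, threshold 0.05) was run on the 599 miRNAs that had 10 or more reads in 2 or more libraries. It had 1 residual degree of freedom, with spread shared across miRNAs (3.79 prior degrees of freedom). With 1 library in each group, this residual is how far the stage difference departs from being equal in both media. SEs and p-values therefore do not measure a spread between repeat libraries. edgeR 4.0.16 and DESeq2 1.42.0 were run on the recovered reads as alternatives. Intervals (Wilson for shares, exact Clopper-Pearson for folds, 95%) take the reads of single libraries as independent counts and cover counting error only. Reads carry no molecular identifiers, so copies of the same molecule could not be collapsed.

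Members were named with values by a rule: the 10 most abundant, the 5 highest and 5 lowest of each contrast, 6 often studied miRNAs, and the arms of the 3 hairpins with the widest range of arm use. The members and lists were chosen with earlier results of these data known. Sequences are from RefSeq (66 of 70 members matched). Hairpins were placed by exact match to mm9. Other scalings (TMM, DESeq2 size factors, totals without the 5 most abundant miRNAs or without the imprinted domain), pseudocounts and filters were tried.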

Additional observations from a re-analysis of the deposited data

Results flagged for a closer look

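A change that went one way in 1 pair of libraries and the other way in the matching pair, with the 2 changes at least 1 apart on the log2 scale, was found for 3 of the 42 expressed members (7.14%) and for 17.9% of all expressed miRNAs. For miR-485-3p, at 484, 170, 396 and 463 RPM, ELA minus ES was -0.29 in serum and 1.60 in 2iL, 1.90 apart. For miR-485-5p these were -0.36 and 0.75, 1.11 apart. For miR-154-3p, 2iL minus serum was -0.63 in ES cells and 0.69 in ELA, 1.32 apart, and in ES cells its counting interval for the fold (0.667 to 1.13) includes 1. Each group has 1 library, so these differences between media and between stages were not tested.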

How the results depend on the processing

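For stage, the number of the 42 members past 1 on the higher side was 5 on the RPM scale, 12 under TMM, 12 with size factors from DESeq2, 9 when the 5 most abundant miRNAs and 11 when the imprinted domain was kept out of the totals, 8 relative to the median (added after seeing the data), 10 of 65 without a filter on the mean, 0 in the serum libraries alone and 13 in the 2iL libraries alone, where 1 was past 1 on the lower side. The median of 0.43 became 0.60, 0.64, 0.51, 0.55, 0.51, 0.45, 0.48 and 0.53 in the same order, and 0.42 with a pseudocount of 5. The count of members called by limma, 0, became 1 of 60 under TMM, where 7.51% of all miRNAs were called, 1 of 66 without the filter on low reads, where 8.24% were, 1 by edgeR, where 6.51% were, and 2 by DESeq2, where 8.35% were.

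For medium, the higher count of 5 became 1 under TMM, 1 under DESeq2 size factors, 3 without the 5 most abundant, 1 without the domain, 1 relative to the median, 6 in ES libraries alone, 4 in ELA libraries alone and 7 without a filter on the mean, and the lower count of 6 became 9, 9, 7, 8, 9, 9, 6 and 12 in the same order. The median of 0.10 turned negative in 6 settings: -0.32 under TMM, -0.28 under DESeq2 size factors, -0.020 without the 5 most abundant, -0.23 without the domain, -0.32 relative to the median and -0.0039 in ES libraries alone. It was 0.056 without a filter on the mean and 0.17 in ELA libraries alone. The 0 members called became 5 of 60 under TMM, where 12.4% of all were called, 1 with a pseudocount of 5, where 6.34% were, 5 of 66 without the filter on low reads, where 10.8% were, 6 by edgeR, where 10.7% were, and 6 by DESeq2, where 12.4% were. The scalings differ in where they set the median of all expressed miRNAs, 0.42 for medium under RPM; beyond that the cause was not tested.

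The summed level of the cluster in ES serum, 103341 RPM, became 110141 under DESeq2 size factors, 110439 without the 5 most abundant, 111634 without the domain and 61714 without miR-541-5p. In ES 2iL, 51889 became 42004, 45694, 44102 and 39319. In ELA from serum, 140258 became 171208, 142574, 163853 and 82807, and in ELA from 2iL, 95692 became 90863, 100029, 89216 and 54906. The limma fit already sets stage against stage within a medium, which is a pairing by medium. No further paired analysis was possible because each group has 1 library. For the same reason no library could be left out within a group, and each medium and each stage was taken alone instead. Precision was limited by the shallowest library, with 587363 reads.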
